A study of Mus musculus with 6 samples.

Results

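The 8 genes described here are long non-coding RNAs known from the brain: Neat1, Malat1, Meg3, Miat, Sox2ot, Rian, Snhg11 and Pantr1. They were taken by symbol from a table of 19251 genes, and all 8 were present and passed the filter that kept 19109 genes for testing. They were named as abundant transcripts with the values of these libraries already known, so their levels and diet differences are given as a description and nothing is read from how many of them passed a test. RNA was from the substantia nigra of C57BL/6 mice, all of which carried rAAV-A53T-aSynuclein, a viral vector model of Parkinson's disease. From 2 weeks after surgery, 1 group was fed ad libitum and the other was on intermittent fasting, with food withheld for 24 hours on 3 days a week, and the diet lasted 10 weeks. Each diet had 3 libraries of polyadenylated RNA. Levels are given as CPM, the count a gene would have in a library of 1000000 counts, after TMM scaling between libraries. No library without the vector enters the comparison, and the promoter of the vector and the age of the mice are not stated in the labels. Whether each library is 1 animal is not stated either, so p-values measure only the spread between these samples. Ad libitum replicate 2 stood apart: 3 markers of cholinergic neurons summed to 77.0 CPM there against 2.08 to 7.35 CPM elsewhere. For 4 markers of hypothalamic neurons it was at 512 CPM, against 25.1 and 3.16 CPM in ad libitum replicates 1 and 3. The fasting libraries held 108 to 143 CPM of these 4, so their level also differed between the diets without ad libitum replicate 2. Values of the 8 that rest on ad libitum replicate 2 are given with and without it. Ad libitum replicate 3 held the most RNA of dopaminergic neuron and erythroid markers, as given further on.

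Long non-coding RNAs act as RNA and are not translated. Neat1 builds paraspeckles, nuclear bodies that hold back RNAs and RNA-binding proteins, and its neighbour Malat1 gathers in nuclear speckles, where splicing factors are stored. Meg3 and Rian are expressed from the maternal copy of the imprinted Dlk1-Dio3 locus, and Rian carries small nucleolar RNAs in its introns. Miat, also called Gomafu, is a nuclear RNA of neurons, Snhg11 is a small nucleolar RNA host gene of neurons, Sox2ot contains the gene of the stem cell and glial factor Sox2 within an intron, and Pantr1 lies beside the neural factor gene Pou3f3.

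The Miat sequence is shown for the proteins it is known to bind, whose genes are compared with it further on. Miat holds copies of the branch point-like heptamer TACTAAC, to which the splicing factor SF1 and the RNA-binding protein QKI are known to bind. A search of the sense strand found 6 copies in its longest GENCODE M21 transcript (Miat-205, 9163 bases), all between bases 4941 and 5629. Of the longest transcripts of 19185 genes in the table, 7.97% held the heptamer at all and 2, Miat included, held 6 or more copies. The stretch of 300 bases from base 4866 to base 5165 has 3 copies, in capitals.
Miat-205: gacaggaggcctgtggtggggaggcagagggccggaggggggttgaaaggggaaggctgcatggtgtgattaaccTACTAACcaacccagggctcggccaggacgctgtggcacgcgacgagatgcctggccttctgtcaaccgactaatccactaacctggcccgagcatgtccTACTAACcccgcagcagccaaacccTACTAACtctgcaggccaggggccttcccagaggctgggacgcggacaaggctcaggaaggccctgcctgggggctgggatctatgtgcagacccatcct
Among the other 7 long non-coding RNAs, the heptamer occurred once in Neat1 and in none of the remaining longest transcripts.

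The libraries were made from polyadenylated RNA, which matters for Neat1 and Malat1 because of their 3′ ends. Neat1 has a short polyadenylated form and a long form whose 3′ end is cut without a poly(A) tail and is capped by a triple helix, and Malat1 is processed in the same way as the long form. In GENCODE M21 the short form (Neat1-202) has 3004 bases and the long form (Neat1-201) 20771. The last 60 bases of each annotated transcript follow, with the poly(A) signal AATAAA, searched on the sense strand, in capitals.
Neat1-202: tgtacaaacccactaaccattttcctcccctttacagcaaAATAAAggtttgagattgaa
Neat1-201: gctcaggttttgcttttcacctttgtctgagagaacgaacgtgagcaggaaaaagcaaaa
Malat1-201: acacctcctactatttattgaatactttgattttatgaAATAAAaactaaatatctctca
The signal was present in the last 60 bases of 55.7% of the longest transcripts of all genes. The annotated end of Malat1-201 holds it, as that of Neat1-202 does, so it is not taken here as the end without a tail. The deposited counts are per gene, so the 2 forms of Neat1 are not separated in any value below.

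In the substantia nigra of the fasted mice Sox2ot and Neat1 were lower than in mice fed ad libitum, by 2.00-fold and 1.67-fold, and they were the 2 of 8 that edgeR called. Meg3, Miat, Snhg11 and Rian had values 1.15-fold to 1.32-fold higher under fasting, but none was called by edgeR. Their libraries did not overlap between diets, as was found for 27.5% of all genes tested, 12.5% higher and 15.0% lower under fasting. Malat1 had nearly the same mean in both diets, with overlapping libraries. Across all genes edgeR called 0.497% at an adjusted p below 0.05, 0.351% lower and 0.147% higher under fasting. A negative log2 fold change means a lower level under fasting.

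**Figure D1:**
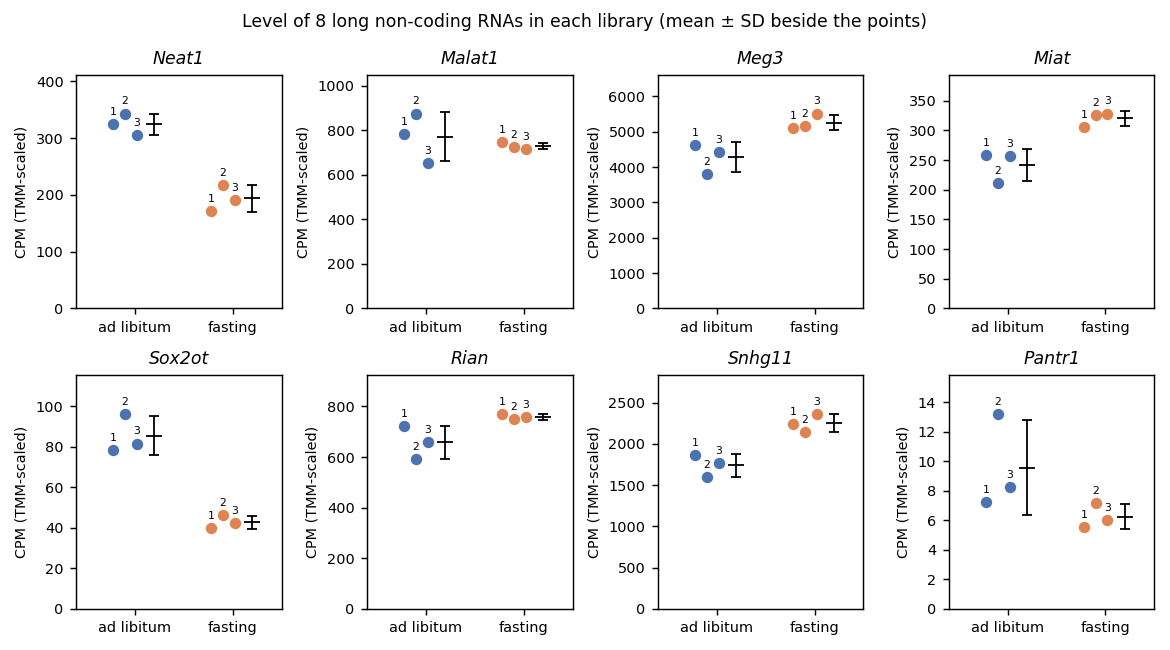
Level of each long non-coding RNA (vertical axis, TMM-scaled CPM from 0) in the 3 ad libitum and 3 fasting libraries, numbered by replicate, with the mean ± SD beside the points. Sox2ot lies at 78.3 to 96.2 CPM ad libitum and 39.8 to 46.1 CPM under fasting, whereas the Malat1 points of the diets overlap.

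Sox2ot (ENSMUSG00000105265) was at 78.3, 96.2 and 81.6 CPM in replicates 1, 2 and 3 fed ad libitum, against 39.8, 46.1 and 42.3 CPM in replicates 1, 2 and 3 that fasted. Every fasting library was lower than every ad libitum library, and the gap was wider than the range within either diet. The log2 fold change was -1.0 (SE 0.09, adjusted p = 0.0343 by edgeR), from 85.4 ± 9.54 to 42.7 ± 3.16 CPM (SD, n = 3). The call was kept under the other 9 settings with all libraries, DESeq2 included (adjusted p = 3.27e-15). It ended without ad libitum replicate 3 (adjusted p = 0.0939 by edgeR), fasting replicate 1 (0.224) or fasting replicate 3 (0.287), where edgeR called 1, 0 and 0 genes in all, with 3200, 2452 and 2495 at an unadjusted p below 0.05. The log2 fold change stayed between -1.06 and -0.91 whichever library was left out.

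Sox2, the protein-coding gene that lies within Sox2ot on the same strand, had 37.1, 35.5 and 41.1 CPM in the ad libitum libraries against 37.4, 31.5 and 36.9 CPM in the fasted ones. These ranges overlap, and its log2 fold change was -0.10 (SE 0.09, adjusted p = 0.558 by edgeR). The ratio of Sox2ot to Sox2 counts, which does not depend on scaling between libraries, was 2.11, 2.71 and 1.98 ad libitum and 1.06, 1.46 and 1.15 under fasting, with no overlap between diets. Dnajc19, which encodes a mitochondrial co-chaperone and is the nearest measured coding gene on the other side, had a log2 fold change of -0.22 (adjusted p = 0.187 by edgeR). In words of 31 bases, 5.44% of the annotated sequence of Sox2ot also occurs in transcripts of other genes.

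Neat1 (ENSMUSG00000092274) was at 324, 343 and 306 CPM in replicates 1, 2 and 3 fed ad libitum, against 172, 218 and 192 CPM in replicates 1, 2 and 3 that fasted. The diets did not overlap, and the lowest ad libitum library was well above the highest fasting library. The mean went from 325 ± 18.7 to 194 ± 23.4 CPM (SD, n = 3), with a log2 fold change of -0.74 (SE 0.10, adjusted p = 0.0422 by edgeR). This call lay close to the threshold: it ended with limma-voom (adjusted p = 0.0541), with library totals in place of TMM (0.0554), without robust shrinkage (0.0503), and without ad libitum replicate 2 (0.0653), ad libitum replicate 3 (0.115), fasting replicate 1 (0.246) or fasting replicate 3 (0.287). Its log2 fold change ranged from -0.84 to -0.67 when libraries were left out in turn.

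Malat1 (ENSMUSG00000092341), the next gene along the chromosome from Neat1, was at 784, 875 and 654 CPM in the ad libitum libraries against 746, 727 and 715 CPM in the fasted ones. All fasting values fell inside the ad libitum range. The log2 fold change was -0.08 (SE 0.11, adjusted p = 0.704 by edgeR), and it was 0.01 without ad libitum replicate 2, so no direction is given. The ratio of Neat1 to Malat1 counts was 0.413, 0.392 and 0.468 ad libitum and 0.230, 0.30 and 0.268 under fasting, without overlap. Frmd8, the coding gene on the Neat1 side of the pair, was at 45.4, 62.1 and 43.02 CPM in the ad libitum libraries against 24.5, 31.8 and 26.0 CPM in the fasted ones, also without overlap, but it was not called (log2 difference -0.87, SE 0.17, adjusted p = 0.0721 by edgeR). DESeq2 called Frmd8 (adjusted p = 5.82e-05), and its log2 difference was -0.69 without ad libitum replicate 2.

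Pantr1 (ENSMUSG00000060424) was the least abundant of the 8, at 7.24, 13.2 and 8.25 CPM in the ad libitum libraries against 5.53, 7.19 and 5.99 CPM in the fasted ones. Only ad libitum replicate 2 stood well away from the fasting libraries. The gap between ad libitum replicate 1 and fasting replicate 2 was smaller than the effect of scaling: as a percent of all counts they were at 0.000711 and 0.000723, in the opposite order. The log2 fold change was -0.62 (SE 0.24, adjusted p = 0.219 by edgeR) and shrank to -0.32 without ad libitum replicate 2. Pou3f3, a transcription factor gene of neurons beside Pantr1, had 86.5, 112 and 101 CPM in the ad libitum libraries against 62.6, 82.3 and 73.9 CPM in the fasted ones. The diets did not overlap, but edgeR did not call Pou3f3 (log2 difference -0.45, adjusted p = 0.129 by edgeR), whereas DESeq2 did (adjusted p = 0.0248). The count ratio of Pantr1 to Pou3f3 overlapped between diets, at 0.0820 to 0.118 ad libitum and 0.0810 to 0.0883 under fasting.

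The neuronal and imprinted transcripts lay on the other side. Meg3 (ENSMUSG00000021268) was at 4609, 3801 and 4433 CPM in the ad libitum libraries against 5108, 5154 and 5513 CPM in the fasted ones. Every fasting library was above every ad libitum library, and ad libitum replicate 2 was the lowest of all. The log2 fold change was 0.30 (SE 0.09, adjusted p = 0.127 by edgeR). DESeq2 called it (adjusted p = 0.0284), as it called 7.4% of the genes it tested, 2.9% higher and 4.51% lower under fasting. DESeq2 called 5 of the 8 in all: Neat1 and Sox2ot lower, and Meg3, Miat and Snhg11 higher.

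Rian (ENSMUSG00000097451), from the same imprinted locus, was at 722, 593 and 659 CPM in the ad libitum libraries against 771, 749 and 758 CPM in the fasted ones. The fasting libraries lay close together, with an SD of 11.1 CPM against 64.9 CPM ad libitum, and the log2 fold change was 0.21 (SE 0.08, adjusted p = 0.213 by edgeR). The count ratio of Meg3 to Rian was 6.38, 6.41 and 6.73 ad libitum and 6.63, 6.88 and 7.27 under fasting, so the ranges overlapped. Mirg, the microRNA host gene downstream of Rian, had a log2 fold change of 0.17 (adjusted p = 0.331 by edgeR). The coding genes of the locus that are expressed from the paternal copy, Dlk1 and Rtl1, had log2 fold changes of 0.24 (SE 0.29, adjusted p = 0.691 by edgeR) and 0.51 (SE 0.30, adjusted p = 0.404 by edgeR), with ad libitum replicate 3 far above the other ad libitum libraries for both. Rtl1 lies within the annotated span of this non-coding cluster on the opposite strand. The strand setting of the counting is not given, so whether the Rtl1 count excludes reads of its antisense partners is not known.

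Miat (ENSMUSG00000097767) was at 258, 211 and 257 CPM in the ad libitum libraries against 306, 327 and 329 CPM in the fasted ones, again with no overlap and with ad libitum replicate 2 lowest. Its log2 fold change was 0.40 (SE 0.09, adjusted p = 0.0825 by edgeR), and DESeq2 gave an adjusted p of 0.00299. Snhg11 (ENSMUSG00000044349) was at 1868, 1594 and 1768 CPM in the ad libitum libraries against 2246, 2144 and 2366 CPM in the fasted ones. These also did not overlap, with a log2 fold change of 0.37 (SE 0.08, adjusted p = 0.0754 by edgeR, DESeq2 adjusted p = 0.00101). The GENCODE M21 annotation classes Snhg11 as protein-coding and RefSeq as a long non-coding RNA. Without ad libitum replicate 1, edgeR called Meg3 (adjusted p = 0.0493), Miat (0.0415) and Snhg11 (0.0297) as well, in a fit that called 6.18% of all genes, 2.29% higher and 3.89% lower. Coding genes beside Miat and Snhg11 were not called: Mn1 and Cryba4 had log2 fold changes of -0.73 and -0.85, and Lbp and Ralgapb of 0.64 and -0.04 (edgeR adjusted p from 0.242 to 0.798).

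**Figure D2:**
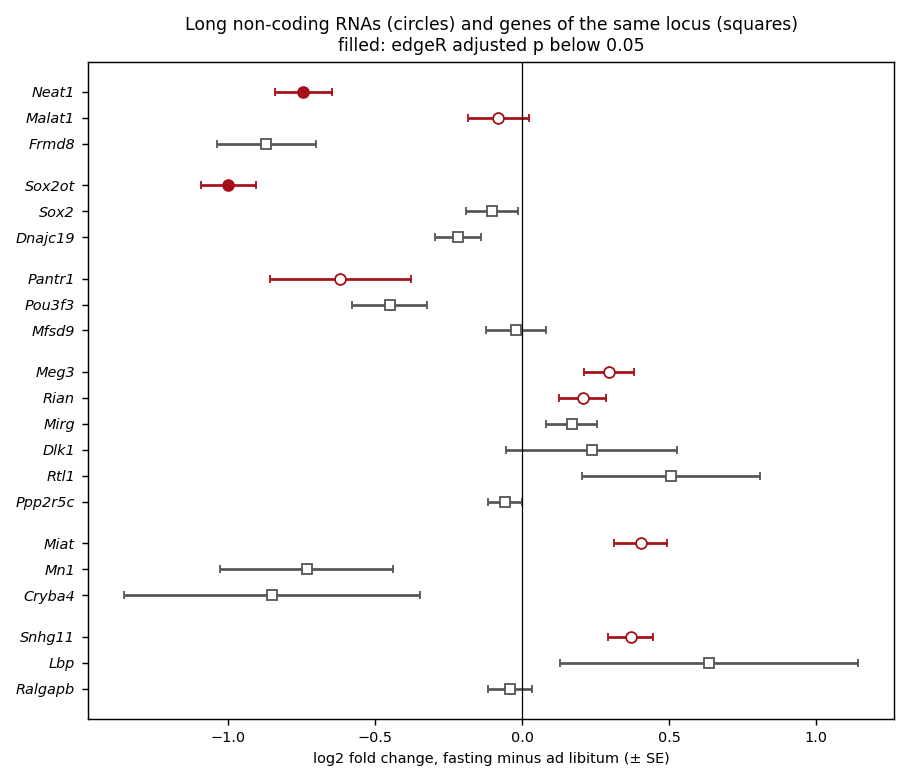
Log2 fold change (horizontal axis, fasting minus ad libitum, bars ± SE) of the 8 long non-coding RNAs (circles) and of genes at the same locus (squares), grouped by locus, with circles filled where the edgeR adjusted p was below 0.05. Neat1 and Sox2ot are the filled circles, while Malat1 at -0.08 and Sox2 at -0.10 lie near 0.

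In 7 of the 8, all but Malat1, the diets did not overlap on the TMM scale, a state found for 27.5% of all genes tested, 12.5% higher and 15.0% lower under fasting. Since the 8 were named with these values known, this share is not read further. The 8 together made up 0.850%, 0.756% and 0.825% of all counts in replicates 1, 2 and 3 fed ad libitum, against 0.931%, 0.943% and 0.999% in those that fasted. Meg3 alone held 0.382% to 0.453% ad libitum and 0.506% to 0.555% under fasting.

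Promoter windows from RefSeq (GRCm38.p6, 250 bases before to 50 after the start) were at hand for 5 of the 8. They are shown for Meg3 (the first of its 2 windows), Miat and Snhg11, the 3 with the largest positive log2 fold changes. Capitals mark the motifs searched on both strands: the cyclic AMP response element TGACGTCA, the E-box CACGTG, the GC box GGGCGG, the TATA box TATAAA and the CCAAT box CCAAT. The Meg3 window is chr12:109540746-109541045 on the plus strand, the Miat window chr5:112228899-112229198 on the minus strand and the Snhg11 window chr2:158375463-158375762 on the plus strand, each read in the direction of its gene.
Meg3: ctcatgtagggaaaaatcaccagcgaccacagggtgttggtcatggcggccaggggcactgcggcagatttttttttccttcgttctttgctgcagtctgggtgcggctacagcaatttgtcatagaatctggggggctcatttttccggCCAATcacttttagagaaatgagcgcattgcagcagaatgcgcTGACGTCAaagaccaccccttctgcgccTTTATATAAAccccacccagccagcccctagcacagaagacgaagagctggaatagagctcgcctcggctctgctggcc
Miat: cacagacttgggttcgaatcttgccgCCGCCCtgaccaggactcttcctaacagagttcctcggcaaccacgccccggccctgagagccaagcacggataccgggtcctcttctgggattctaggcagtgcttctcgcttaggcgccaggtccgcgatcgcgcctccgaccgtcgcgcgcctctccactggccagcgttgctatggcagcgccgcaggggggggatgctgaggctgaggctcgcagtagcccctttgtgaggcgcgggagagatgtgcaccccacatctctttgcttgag
Snhg11: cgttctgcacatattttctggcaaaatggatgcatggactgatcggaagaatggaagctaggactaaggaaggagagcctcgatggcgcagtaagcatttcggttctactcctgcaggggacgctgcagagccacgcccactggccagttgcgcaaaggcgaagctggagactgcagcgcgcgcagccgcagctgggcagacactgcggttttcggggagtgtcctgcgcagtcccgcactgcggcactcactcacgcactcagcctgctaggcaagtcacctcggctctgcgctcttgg
The Meg3 window held 1 cyclic AMP response element, present in 1.79% of 32851 windows, 1 CCAAT box (37.4%) and the TATA box on both strands in overlapping copies. A TATA box on at least 1 strand was present in 13.6% of windows, and the other shares are counted in the same way. The Miat window held 1 GC box (35.7%), and none of these letters were found in the Snhg11 window. CpG dinucleotides numbered 13 in the Meg3 window, 25 in that of Miat and 21 in that of Snhg11, against a median of 7 over all windows. The windows not shown, the second of Meg3 and those of Rian and Malat1, held none of the motifs and had 1, 0 and 10 CpG dinucleotides.

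Within the ad libitum group the same split between the transcripts was visible, with Malat1 added to the Neat1 side. Ad libitum replicate 2 had the lowest ad libitum value of Meg3, Miat, Snhg11 and Rian and the highest of Neat1, Malat1, Sox2ot and Pantr1. Relative to the ad libitum mean on the log2 scale, it lay at -0.17 for Meg3, -0.19 for Miat, -0.13 for Snhg11 and -0.15 for Rian. It lay at 0.08 for Neat1, 0.18 for Sox2ot, 0.19 for Malat1 and 0.51 for Pantr1, although Malat1 overlapped between diets. The same library held the most RNA of oligodendrocyte markers, summing to 19576 CPM against 14303 CPM as the lowest ad libitum value. Without it, Sox2ot was still called at a log2 fold change of -0.91 (adjusted p = 0.0372 by edgeR), and Miat and Snhg11 were at 0.31 and 0.30.

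**Figure D3:**
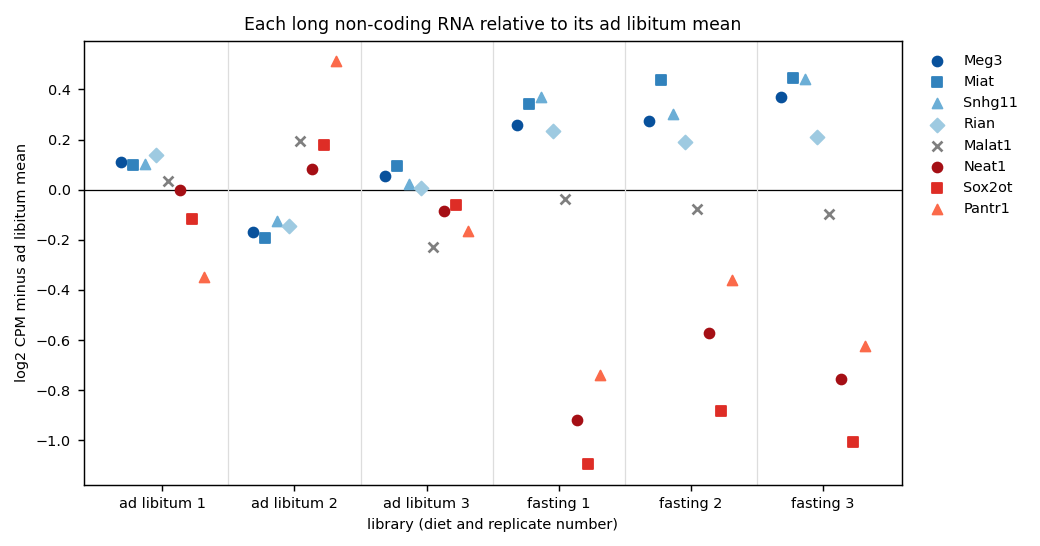
Log2 CPM of each long non-coding RNA minus its ad libitum mean (vertical axis) in each of the 6 libraries (horizontal axis). Meg3, Miat, Snhg11 and Rian (blue) lie above 0 and Neat1, Sox2ot and Pantr1 (red) below 0 in every fasting library, and ad libitum replicate 2 shows blue points below and red points above 0.

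Over the 6 libraries, Pearson's r of log2 CPM was 0.98 between Neat1 and Sox2ot and between Meg3 and Miat, and -0.97 between Snhg11 and Sox2ot. These points share library and diet, so the coefficients describe the pattern only. Among 10384 other genes with a mean of at least 10 CPM, the 3 most like Sox2ot were Lcp1, Clic4 and Plxnb3 (r from 0.997 to 0.999). The 3 most like Neat1 were Ldah, Gjb1 and Tmem125 (r = 0.996 for each). An r above 0.9 was found for 746 of the 10384 genes with Sox2ot and for 643 with Neat1. With the others the number ran from 61 for Malat1 to 660 for Rian. The genes named are thus only the top of long lists. Lcp1 encodes an actin-bundling protein of leukocytes, Clic4 an intracellular chloride channel protein, Plxnb3 a semaphorin receptor and Gjb1 a gap junction protein of oligodendrocytes. Plxnb3 was at 79.5, 97.4 and 82.3 CPM in the ad libitum libraries against 40.6, 49.9 and 46.5 CPM in the fasted ones. The diets did not overlap, with a log2 difference of -0.92, and Gjb1, Lcp1 and Clic4 were at -0.86, -0.53 and -0.56. These genes were picked for following Sox2ot or Neat1 over the same libraries, so a diet difference comes with the choice and no test is given.

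Miat was most like Klhl22, Tnrc6a and Sugp2 (r from 0.993 to 0.999), Snhg11 like Gtpbp4, Iars2 and Mri1 (r from 0.988 to 0.995), and Rian like Mettl2, Herc2 and Chst8 (r from 0.995 to 0.996). Meg3 was most like Gm28043, Fbxo45 and Trappc14 (r from 0.985 to 0.999), and 76.6% of the sequence of Gm28043 is shared with other genes. Pantr1 was most like Dlg1, Cplx2 and Cldn11 (r from 0.992 to 0.995), each highest in ad libitum replicate 2. Malat1 was most like Ly6c1, Mapkapk5 and B3gnt2 (r from 0.978 to 0.990), of whose sequence 46.8%, 53.9% and 64.6% is shared with other genes.

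Between genes, levels were compared per kilobase of annotated exon sequence. Ad libitum, Meg3 was at 237 ± 23.5, Snhg11 at 205 ± 16.3, Malat1 at 110 ± 15.9, Rian at 36.1 ± 3.56 and Miat at 26.1 ± 2.92 CPM per kilobase (SD, n = 3). Neat1 followed at 15.6 ± 0.901, Sox2ot at 7.36 ± 0.823 and Pantr1 at 2.15 ± 0.718 CPM per kilobase. Of neighbours in this order, only Meg3 (210 to 255) and Snhg11 (187 to 219) overlapped ad libitum. Under fasting the order was the same and no neighbours overlapped, with Meg3 at 291 ± 12.3 and Pantr1 at 1.4 ± 0.193 CPM per kilobase. Measured against the longest transcript in place of all exons, Snhg11 (341) came above Meg3 (328) and Sox2ot (18.4) above Neat1 (12.5) over all libraries, so those orders depend on the length used. The Neat1 length is that of the long form, so its value per kilobase is too low if mostly the short form was captured.

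The name "abundant" held for most but not all. Per kilobase, Meg3 ranked 76th of 19045 genes with a length, Snhg11 86th, Malat1 272nd, Rian 1037th, Miat 1404th and Neat1 3726th. Among 1314 genes that RefSeq classes as long non-coding RNAs, these 6 ranked between 3rd and 25th. Sox2ot ranked 65th and Pantr1 206th of the 1314, and Pantr1 was only 11618th among all genes.

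The proteins and RNAs that work with these transcripts were examined through gene lists. Of 20 paraspeckle protein genes edgeR called 0, with 2 at an unadjusted p below 0.05, 1 called by DESeq2 and 0 by limma-voom. Such unadjusted p were found for 20.4% of all genes, the background for this count in each list. The list median was 0.00, against -0.01 over all genes. Sfpq, Nono and Pspc1, the core paraspeckle proteins, had log2 fold changes of -0.01, 0.00 and 0.09, and Hnrnph1, with the smallest p of the list, was at 218 ± 3.01 and 189 ± 6.49 CPM (log2 difference -0.21, adjusted p = 0.103 by edgeR). Of 26 nuclear speckle and SR protein genes 0 were called by edgeR or limma-voom and 2 by DESeq2, with 4 at an unadjusted p below 0.05 and a median of 0.01. Their smallest p belonged to the splicing factors Srsf2 (0.22, adjusted p = 0.0926 by edgeR) and Rnps1 (0.19, adjusted p = 0.107 by edgeR).

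Of 4 measured factors that bind Miat, 1 was called. Qki, whose protein binds TACTAAC and directs splicing in oligodendrocytes, fell from 682 ± 56.7 to 466 ± 13.7 CPM (log2 difference -0.55, SE 0.07, adjusted p = 0.0427 by edgeR). It was at 626, 740 and 679 CPM in the ad libitum libraries against 466, 480 and 453 CPM in the fasted ones, without overlap, whereas Miat itself was higher under fasting in every library. Sf1 was at 139 CPM in both diets (log2 difference 0.00, SE 0.05), Srsf1 was at 0.03 and Celf3 at 0.22. The Qki call ended with limma-voom (adjusted p = 0.0541), with library totals (0.0562), without robust shrinkage (0.0518) and without any library other than ad libitum replicate 1, where the highest edgeR adjusted p was 0.287.

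Of 25 genes of nuclear RNA turnover, 3′ end processing and m6A methylation, edgeR and limma-voom called 0 and DESeq2 2, with 7 at an unadjusted p below 0.05 and a median of 0.03. Mettl16, a methyltransferase that binds the triple helix of Malat1, was at 44.4 ± 0.882 and 35.4 ± 2.39 CPM (log2 difference -0.33, SE 0.06, adjusted p = 0.0685 by edgeR). Mettl3, the catalytic m6A methyltransferase, was at 18.6 ± 0.952 and 14.9 ± 0.286 CPM (-0.32, adjusted p = 0.0715 by edgeR).

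Genes known for RNAs made without a poly(A) tail were examined because the long form of Neat1 has none. Like the other lists, this one was chosen with earlier results of these data known. The libraries were of polyadenylated RNA and the counts are per gene. Whether the reads of these genes came from RNA without a tail is therefore not known. Of 56 listed, 16 were measured, 15 of them replication-dependent histone genes. Of these 16, 3 were called by edgeR, 7 by DESeq2 and 0 by limma-voom, all lower, with 12 at an unadjusted p below 0.05. A negative log2 fold change was found for 15, and the median was -0.93. Levels were low: H1f4 fell from 2.80 ± 0.708 to 0.766 ± 0.107 CPM and H3c15 from 2.27 ± 0.422 to 0.614 ± 0.157 CPM. H2bc6 fell from 6.41 ± 0.808 to 2.56 ± 0.561 CPM, and the lowest count of the list in a library was 3. H3c15 and H2bc6 had log2 fold changes of -1.88 and -1.32 (adjusted p = 0.0422 and 0.0478 by edgeR). Of the sequence of H1f4, H3c15 and H2bc6, 34.7%, 64.2% and 18.2% is shared with other genes. All 3 calls ended with limma-voom (adjusted p from 0.0545 to 0.0685), with library totals (0.0554 to 0.0582), without robust shrinkage (0.0503 to 0.0555) and without any library other than ad libitum replicate 1 (up to 0.287). The summed level of the list was 74.1 to 104 CPM ad libitum and 53.8 to 58.1 CPM under fasting, without overlap. Rn7sk, the listed gene that is not a histone gene, had a log2 fold change of 0.45 (SE 0.33, adjusted p = 0.494 by edgeR). Its levels were low too and overlapped, at 0.720 to 1.49 CPM ad libitum and 1.04 to 1.93 CPM under fasting. Malat1 overlapped between the diets as given above. The part of this shift in the Neat1 value was not tested.

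Other non-coding host genes and imprinted genes were compared with Snhg11, Meg3 and Rian. Of 18 other small nucleolar RNA host genes, edgeR, DESeq2 and limma-voom each called 0, with 2 at an unadjusted p below 0.05, 5 below 0 and a median of 0.15. Snhg15 (0.50, adjusted p = 0.121 by edgeR) and Snhg1 (0.33, adjusted p = 0.164 by edgeR) had the smallest p. Of 33 genes of the Dlk1-Dio3 locus and other imprinted regions, edgeR and limma-voom called 0 and DESeq2 called 5, all higher, with 11 at an unadjusted p below 0.05. The median was 0.19 and 9 were below 0. The summed level of this list was 6168 to 6521 CPM ad libitum and 7043 to 7486 CPM under fasting, without overlap. Nap1l5 was at 692 ± 38.2 and 915 ± 42.7 CPM (log2 difference 0.40, SE 0.07, adjusted p = 0.0599 by edgeR), and the zinc finger gene Peg3 at 1067 ± 44.0 and 1328 ± 18.2 CPM (0.32 with SE 0.06, adjusted p = 0.065 by edgeR). Of 35 other named long non-coding RNAs, edgeR and limma-voom called 0 and DESeq2 1, with 6 at an unadjusted p below 0.05 and a median of -0.02. Rmst, a midbrain and neurogenic long non-coding RNA, had the smallest p, at 10.3 ± 2.50 and 17.1 ± 1.42 CPM (0.73, adjusted p = 0.0952 by edgeR). Of 11 measured genes listed for sharing a locus with a member, edgeR and limma-voom called 0 and DESeq2 3, with 4 at an unadjusted p below 0.05.

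**Figure D4:**
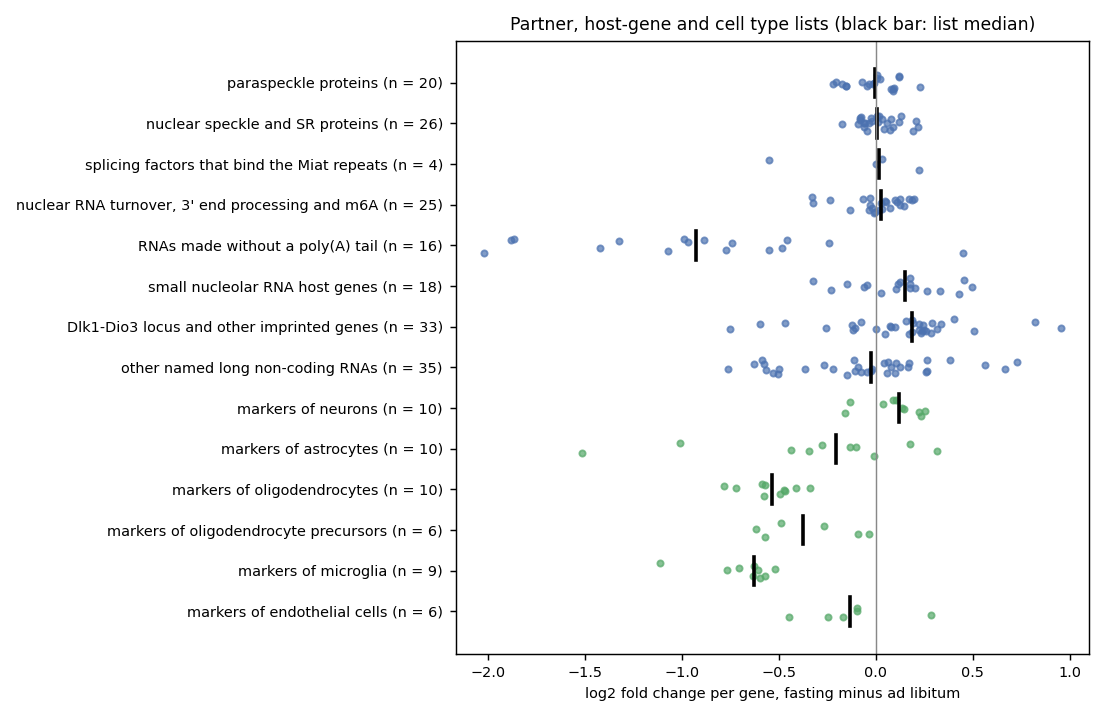
Log2 fold change of each measured gene (points, horizontal axis) in lists of partner and host genes (blue) and cell type markers (green), with the list median as a black bar. Paraspeckle and speckle proteins centre near 0, while genes listed for RNAs without a poly(A) tail (-0.93) and markers of microglia (-0.63) and oligodendrocytes (-0.53) lie below it.

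Markers of glial cells had mostly negative log2 fold changes, as Neat1 and Sox2ot did. All 10 oligodendrocyte markers had negative log2 fold changes, with a median of -0.53, and their summed level was 14303 to 19576 CPM ad libitum and 10176 to 12694 CPM under fasting. EdgeR and limma-voom called 0 of these 10 and DESeq2 8, with 8 at an unadjusted p below 0.05. All 9 microglia markers were negative too (median -0.63), at 383 to 520 CPM summed against 296 to 302 CPM, and edgeR called 3, C1qa (-0.71), C1qb (-0.76) and Fcrls (-1.11), at adjusted p of 0.0403, 0.0422 and 0.0422. DESeq2 called all 9 and limma-voom 2, with 9 at an unadjusted p below 0.05. The Fcrls call ended with limma-voom (adjusted p = 0.062) and without ad libitum replicate 2 (0.0634), and all 3 ended with library totals (0.0554 each), without robust shrinkage (0.0503 each) and without ad libitum replicate 3 or any fasting library (up to 0.287). For 6 markers of oligodendrocyte precursors the median was -0.38, with summed levels of 492 to 576 and 376 to 424 CPM, and for 10 astrocyte markers it was -0.20, with 3930 to 4919 and 3611 to 3860 CPM. EdgeR and limma-voom called 0 in both of these lists and DESeq2 4 and 3, with 4 and 5 at an unadjusted p below 0.05. No marker in these lists had 0 counts in any library.

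Neuronal markers, which mark the cells known for Meg3, Miat and Snhg11, had a median of 0.12 over 10 genes. Their summed level overlapped, at 6477 to 8401 CPM ad libitum and 7673 to 8044 CPM under fasting, lowest in ad libitum replicate 2. EdgeR, DESeq2 and limma-voom called 0 of them, with 2 at an unadjusted p below 0.05, Syp (0.26, adjusted p = 0.174 by edgeR) and Stmn2 (0.23, adjusted p = 0.216 by edgeR). The 6 markers of dopaminergic neurons, which define the tissue, were present in every library, with a median of -0.24 and 5 of 6 below 0. They summed to 550, 568 and 1476 CPM in ad libitum replicates 1, 2 and 3, and to 502 to 1025 CPM under fasting. None of the 6 was called by the 3 tools and none had an unadjusted p below 0.05. Ad libitum replicate 3 also held the most RNA of erythroid markers, at 1736 CPM against 430 and 632 CPM in ad libitum replicates 1 and 2. Markers of endothelial cells had a median of -0.13, of erythroid cells -1.13, of ependymal cells 2.90 and of the choroid plexus -1.18, with 0 called by edgeR or limma-voom in each, 2, 0, 2 and 1 by DESeq2, and 3, 0, 2 and 1 at an unadjusted p below 0.05. Ependymal markers were scarce and their sums overlapped, at 12.2 to 15.7 CPM ad libitum and 12.7 to 26.3 CPM under fasting. Their log2 fold changes ran from 0.07 for Foxj1 to 4.75 for Tmem212, whose lowest count in a library was 1. Choroid plexus markers were scarce too, at 6.94 to 85.9 CPM summed. Without ad libitum replicate 2, which held the 85.9 CPM, the choroid plexus median was -0.24, while that of neurons was 0.05, of dopaminergic neurons -0.45 and of oligodendrocytes -0.38. The median of the 4 hypothalamic markers was -0.07 with all libraries and 3.65 without ad libitum replicate 2. In whole tissue, fewer cells of a type and less RNA per cell cannot be told apart, and the part of these markers in the values of the 8 long non-coding RNAs was not tested.

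Across settings the sizes of the differences were steadier than the calls. With all libraries, the log2 fold change ranged from -0.75 to -0.74 for Neat1, from 0.40 to 0.41 for Miat and from 0.36 to 0.37 for Snhg11 over 9 other settings. EdgeR called 95 genes in all, 28 higher and 67 lower, and with library totals in place of TMM 10 genes, 8 higher and 2 lower. With a replicate block it called 1.49% of genes, 0.33% higher and 1.16% lower, and Neat1 and Sox2ot again. Leaving out ad libitum replicate 2 lowered the Meg3 value to 0.21 and the Rian value to 0.13.

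**Figure D5:**
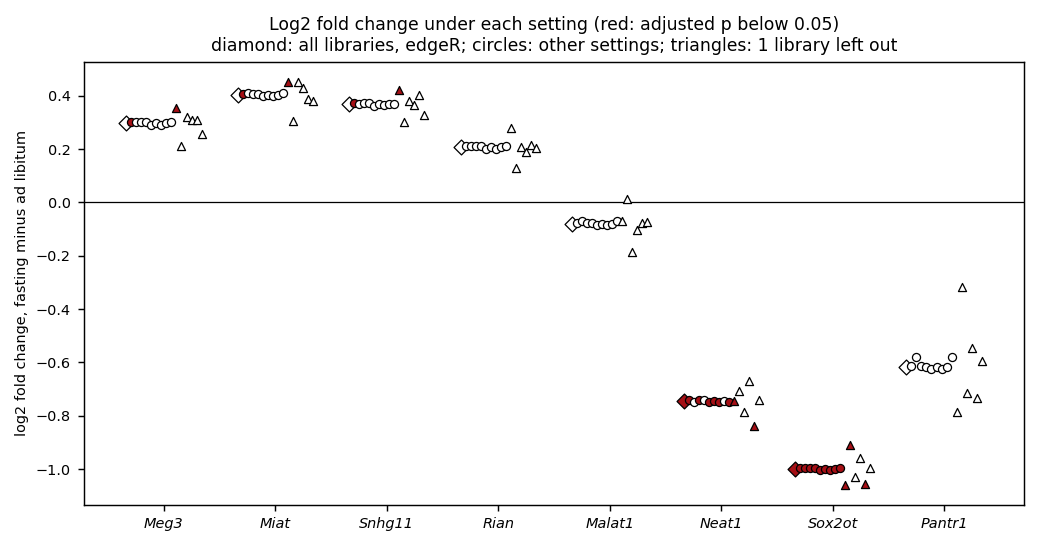
Log2 fold change (vertical axis) of each long non-coding RNA with all libraries in edgeR (diamond), under 9 other settings (circles) and with 1 library left out (triangles), filled red where the adjusted p was below 0.05. Sox2ot stays near -1.0 and Neat1 between -0.84 and -0.67, while Malat1 spans 0.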

How the data were processed

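Members and gene lists were chosen with earlier results of these data known. Per the labels' protocols, the NEBNext Ultra II Directional kit turned RNA isolated by an RNeasy lipid kit into libraries. The authors deposited estimated counts per gene as whole numbers, with 42990234 to 48179706 per library. The submitters' processing notes name Salmon, DESeq2 1.40.2 and the GRCm39 (mm39) build. The role of each tool, the annotation release and the strand setting are not given there or in the labels. Genes were filtered with filterByExpr and compared with edgeR 4.0.16 and its quasi-likelihood F test, two-sided (robust, TMM, Benjamini-Hochberg over 19109 genes, called below 0.05) under R 4.3.3. SE is the log2 fold change divided by the root of F. Alternatives used DESeq2 1.42.0, limma 3.58.1, other scalings and filters, a replicate block, and each library left out. The fits were tested on simulated data. No pair of libraries within a diet agreed within counting noise (smallest chi-square per degree of freedom 8.17). Named genes were the 8 members, up to 4 called genes per list or 2 of smallest p, flanking coding genes and the 3 nearest patterns per member. Others were chosen after their values were seen. Lengths, neighbours and sequences came from GENCODE M21 and RefSeq on GRCm38, another build than the files', so no gene coordinates are given beyond promoter windows.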

Additional observations from a re-analysis of the deposited data

How the results depend on the processing

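With all libraries, edgeR called 95 genes and 2 of the 8 long non-coding RNAs. DESeq2 called 1395 genes and 5 of the 8, limma-voom 32 and 1, library totals 10 and 1, and no robust shrinkage 9 and 1. Leaving out 1 library gave 0 to 1187 genes and 0 to 5 of the 8. Whether the replicate numbers shared between diets pair the libraries is not stated in the labels. The deviations of same-numbered libraries from their diet means correlated at 0.206, -0.0386 and -0.106. With 3 libraries per diet these values cannot decide it. With the replicate block 285 genes and the same 2 long non-coding RNAs were called, as was Frmd8 (adjusted p = 0.0248 by edgeR), and ad libitum replicate 1 alone correlated best with its own number. Among the 8, over 120 combinations of gene and alternative, 103 kept direction and side of the threshold, 10 lost the call, 6 gained one and 1 changed sign, Malat1 at 0.014 without ad libitum replicate 2 (log2 fold changes from -0.186 over the libraries left out). Other named genes that changed sign were near 0 or varied with 1 library. Log2 fold changes with 1 library left out spanned -0.056 to 0.004 for Mfsd9, -0.235 to 0.018 for Ly6c1, -0.085 to 0.028 for Mapkapk5, -0.413 to 0.06 for B3gnt2 and -2.01 to 4.181 for Hcrt, each positive only without ad libitum replicate 2. They spanned -0.085 to 0.035 for Ralgapb, positive without ad libitum replicate 1, and -0.917 to 0.141 for Slc6a3, reversed without ad libitum replicate 3. Hcrt was also reversed with limma-voom (2.068) and the block (0.944). The cause of these changes was not tested.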
